A study of Macaca mulatta with 4 samples.

Results

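The genes studied here encode 10 subunits of voltage-gated calcium channels. They are the pore subunits CACNA1A (P/Q type), CACNA1B (N type), CACNA1C and CACNA1D (L type), CACNA1E (R type) and CACNA1G, CACNA1H and CACNA1I (T type), and the alpha2-delta subunits CACNA2D1 and CACNA2D3. They were chosen by symbol, and each matched 1 of the 35395 Ensembl macaque gene IDs in the table of read counts. All 10 had reads in every library and passed the filter on low counts, as did 15417 genes in all. The RNA came from the amygdala of wild type rhesus macaques (Macaca mulatta). The sevoflurane group, 1 female and 1 male, had breathed 2.5 to 3% sevoflurane, an inhaled general anaesthetic, for 4 hours at each of 3 exposures. The exposures were given around postnatal day 7, day 21 and day 35, and the amygdala was collected straight after the final one. The control group was also 1 female and 1 male, and the sources used here do not describe their handling or the gas they breathed.

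Voltage-gated calcium channels open when the membrane depolarises and let calcium into the cell. A single pore subunit forms the channel, and beta and alpha2-delta subunits set how many channels reach the membrane and how they gate. P/Q, N and R type channels trigger transmitter release at nerve terminals, L type channels couple depolarisation to gene expression in the cell body and dendrites, and T type channels open near the resting potential and support burst firing. Volatile anaesthetics are known to reduce currents through several of these channels.

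The 4 libraries held 12477047 to 16293371 reads on genes. Reads of 6 Y-linked genes, counted to check the sex of each library, came to 5795 and 2139 in the sevoflurane and control males, against 6 and 2 in the sevoflurane and control females. Neuronal markers such as SNAP25 and the GABA synthesis genes GAD1 and GAD2 were detected in every library, but no marker of the amygdala itself was among the lists. The control male library stood apart in choroid plexus transcripts, with a sum of 17933 over its markers there. The corresponding sums were 31.0 and 8.10 in the sevoflurane female and male and 13.3 in the control female (CPM, reads of a gene per 1000000 reads of tested genes, scaled by TMM). Differences between conditions were widespread: 40.7% of the tested genes were called in either direction, 21.3% higher and 19.4% lower in sevoflurane (edgeR quasi-likelihood test, Benjamini-Hochberg adjusted p under 0.05). Libraries of the same condition correlated at r = 0.942 (sevoflurane) and 0.944 (control) in log2 CPM, and those of different conditions at 0.715 to 0.807. The sources do not state whether the libraries were prepared together. Sevoflurane, handling and any difference between the groups in RNA quality or library preparation cannot be told apart. In whole tissue fewer cells of a type and less RNA per cell cannot be told apart.

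Sevoflurane was compared with control to see which calcium channel transcripts differed after the last exposure. Of the 10 genes, 5 rose in the sevoflurane libraries, namely CACNA1B, CACNA1C, CACNA1D, CACNA1E and CACNA2D1, and 0 fell. The share of all tested genes called higher was 21.3%. The count of 0 lower was the same at an unadjusted p under 0.05 in edgeR and with DESeq2. The remaining 5 were not called: the P/Q type subunit CACNA1A, which lay at the threshold, the 3 T type subunits and CACNA2D3. The median log2 fold change was 1.43 over the 10 genes and 0.0040 over all tested genes. Because the genes were chosen with earlier results of these data known, the count and the median describe them and are not a test of the family.

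**Figure D1:**
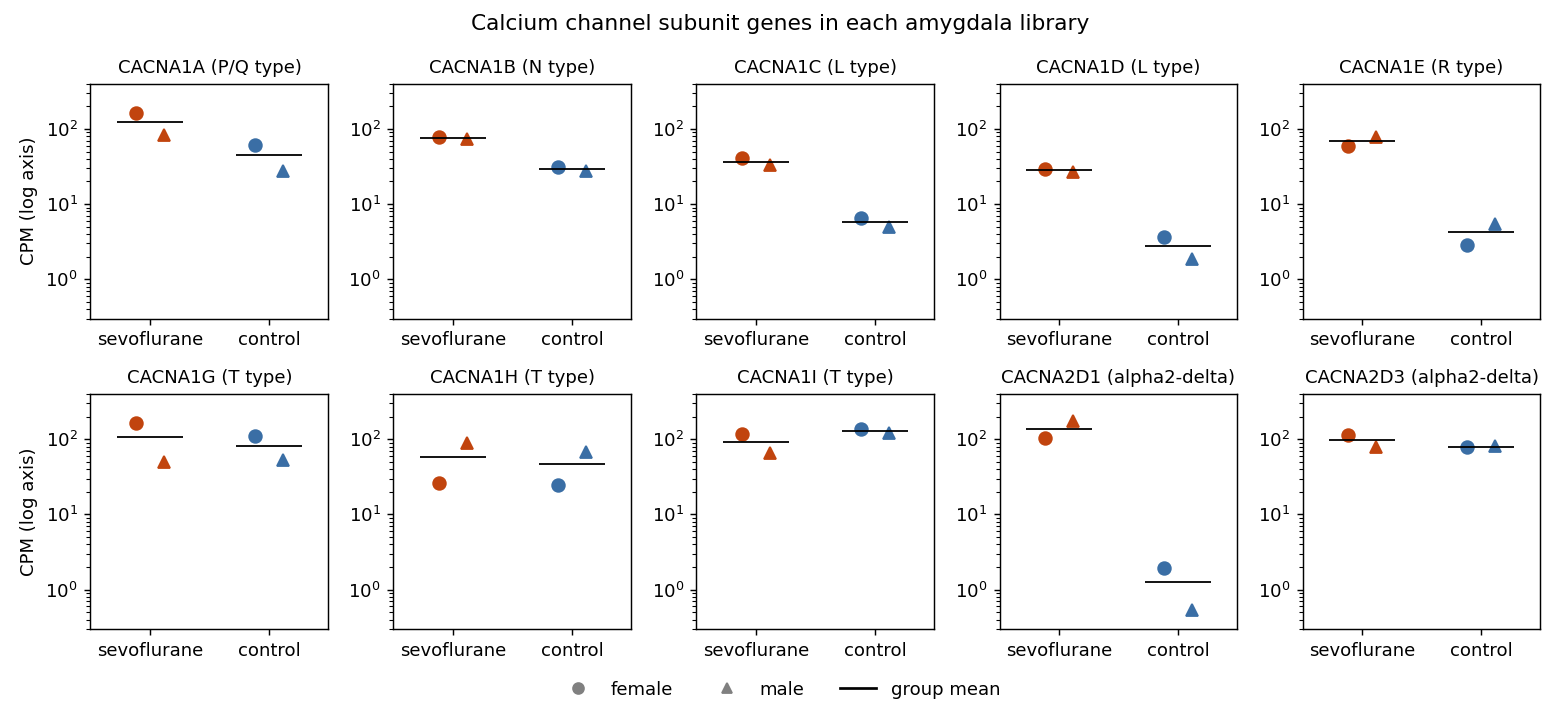
Each panel shows 1 gene in the 4 libraries as CPM on a log axis, with circles for females, triangles for males and a bar at the mean of the 2 libraries of a group. The sevoflurane points lie above all control points for CACNA1A to CACNA1E and CACNA2D1, with the widest gap for CACNA2D1, at 103 and 174 CPM against 1.96 and 0.533 CPM.

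Both L type subunits rose in the sevoflurane libraries. CACNA1C, the main L type pore of brain and heart, stood at 40.4 CPM in the sevoflurane female and 33.0 CPM in the sevoflurane male library, against 6.46 CPM in the control female and 4.97 CPM in the control male library. Its level was higher in both sevoflurane libraries than in either control, with means of 36.7 ± 5.24 and 5.72 ± 1.05 CPM (SD, n = 2 each). The log2 fold change was 2.68 ± 0.35 (SE; edgeR adjusted p = 0.00322), or 6.41-fold. CACNA1D, the L type pore that opens at more negative potentials, had 29.4 and 26.6 CPM in the sevoflurane female and male libraries, against 3.65 and 1.87 CPM in the control female and male. The groups did not overlap, and the log2 fold change was 3.33 ± 0.46 (edgeR adjusted p = 0.00361), which became 3.92 without the control female library. Its control level rested on 56 and 21 reads. Reads of the pair summed to 1103 and 869 in the sevoflurane female and male libraries, against 155 and 77 in the control female and male.

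Among the pore subunits of presynaptic channels, CACNA1E changed most. CACNA1E, the R type pore, had 59.2 CPM in the sevoflurane female and 78.2 CPM in the sevoflurane male library, against 2.87 CPM in the control female and 5.51 CPM in the control male library. Within each condition the male library was the higher, and the gap between conditions was far wider than that. CACNA1E rose by 4.04 ± 0.44 on the log2 scale (edgeR adjusted p = 0.00227), or 16.5-fold. Its control level rested on 44 and 62 reads in the female and male. CACNA1B, the N type pore and the target of conotoxin analgesics, had 78.4 and 73.6 CPM in the sevoflurane female and male libraries, against 30.9 and 27.7 CPM in the control female and male. Its replicates lay close together, at 76.0 ± 3.39 CPM in sevoflurane and 29.3 ± 2.27 CPM in control libraries (SD, n = 2 each). The log2 fold change was 1.37 ± 0.26 (edgeR adjusted p = 0.00884). That call was lost without the control male library (edgeR adjusted p = 0.0540), and the change was not called as exceeding 2-fold (edgeR glmTreat adjusted p = 0.113).

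CACNA1A, the P/Q type pore of most fast central synapses, had 165 CPM in the sevoflurane female and 84.1 CPM in the sevoflurane male library, against 61.1 CPM in the control female and 27.7 CPM in the control male library. The lowest sevoflurane library was above the highest control, but in each condition the female library was well above the male. Its log2 fold change of 1.49 ± 0.49 was larger in size than that of CACNA1B and did not pass the threshold (edgeR adjusted p = 0.0503). It was called under 7 of 10 alternative settings, with adjusted p between 0.000108 and 0.217. Its change came to 2.19 on the log2 scale when the control female was left out, and to 0.93 when the sevoflurane female was. The change was alike in the sexes, at 1.43 in females and 1.60 in males on the log2 scale (1 library per arm, no test).

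The T type subunits were not called, in either direction. CACNA1G had 165 CPM in the sevoflurane female and 50.1 CPM in the sevoflurane male library, against 109 CPM in the control female and 52.4 CPM in the control male library. CACNA1H had 26.2 and 88.3 CPM in the sevoflurane female and male libraries, against 24.5 and 68.5 CPM in the control female and male. For these genes the libraries of the conditions overlapped, and males and females lay farther apart than the conditions. Their log2 fold changes were 0.41 ± 0.60 for CACNA1G (95% interval −1.03 to 1.86) and 0.30 ± 0.67 for CACNA1H (−1.32 to 1.93), intervals that leave room for a change of more than 2-fold either way. CACNA1I, the T type pore largely confined to neurons, had 117 CPM in the sevoflurane female and 66.4 CPM in the sevoflurane male library, against 135 CPM in the control female and 121 CPM in the control male library. Its sevoflurane libraries were the lower, and the log2 fold change was −0.48 ± 0.33 (95% interval −1.28 to 0.31; edgeR adjusted p = 0.276). CACNA1I was the member with a negative fold change, and the sign of CACNA1G and CACNA1H turned when single libraries were left out.

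The alpha2-delta subunits, extracellular proteins anchored to the membrane that carry channels to the cell surface, differed from each other. CACNA2D1, a binding site of gabapentin and pregabalin, had 103 CPM in the sevoflurane female and 174 CPM in the sevoflurane male library, against 1.96 CPM in the control female and 0.533 CPM in the control male library. That is 1632 and 2527 reads in the sevoflurane female and male, against 30 and 6 reads in the control female and male. No other of the 10 genes had so wide a gap. On the log2 scale CACNA2D1 rose by 6.73 ± 0.64 (edgeR adjusted p = 0.00187), or 106-fold. The size depended on the few control reads, and was 8.02 when the control female library was left out and 6.11 when the control male was. CACNA2D3, another alpha2-delta subunit, had 115 and 78.0 CPM in the sevoflurane female and male libraries, against 78.5 and 80.8 CPM in the control female and male. The groups overlapped, and the log2 fold change was 0.28 ± 0.28 (95% interval −0.41 to 0.96; edgeR adjusted p = 0.464).

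Summed over members, the 5 pore subunits of P/Q, N, L and R type stood at 373 and 296 CPM in the sevoflurane female and male libraries, against 105 and 67.8 CPM in the control female and male. The 3 T type subunits together had 308 and 205 CPM in the sevoflurane female and male, against 269 and 242 CPM in the control female and male. In these sums a long transcript counts for more than a short one, since lengths were not used. The first sum did not overlap between conditions and the second did. A change of more than 2-fold was called for 4 of the 10 genes, all higher in sevoflurane (CACNA1C, CACNA1D, CACNA1E and CACNA2D1; edgeR glmTreat), against 12.3% of all tested genes. The libraries of the conditions did not overlap for 7 of the 10 genes, against 75.0% of all tested genes, and for 6 of them the sevoflurane libraries were the higher, against 37.7%. The first of these shares is near that of all genes.

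**Figure D2:**
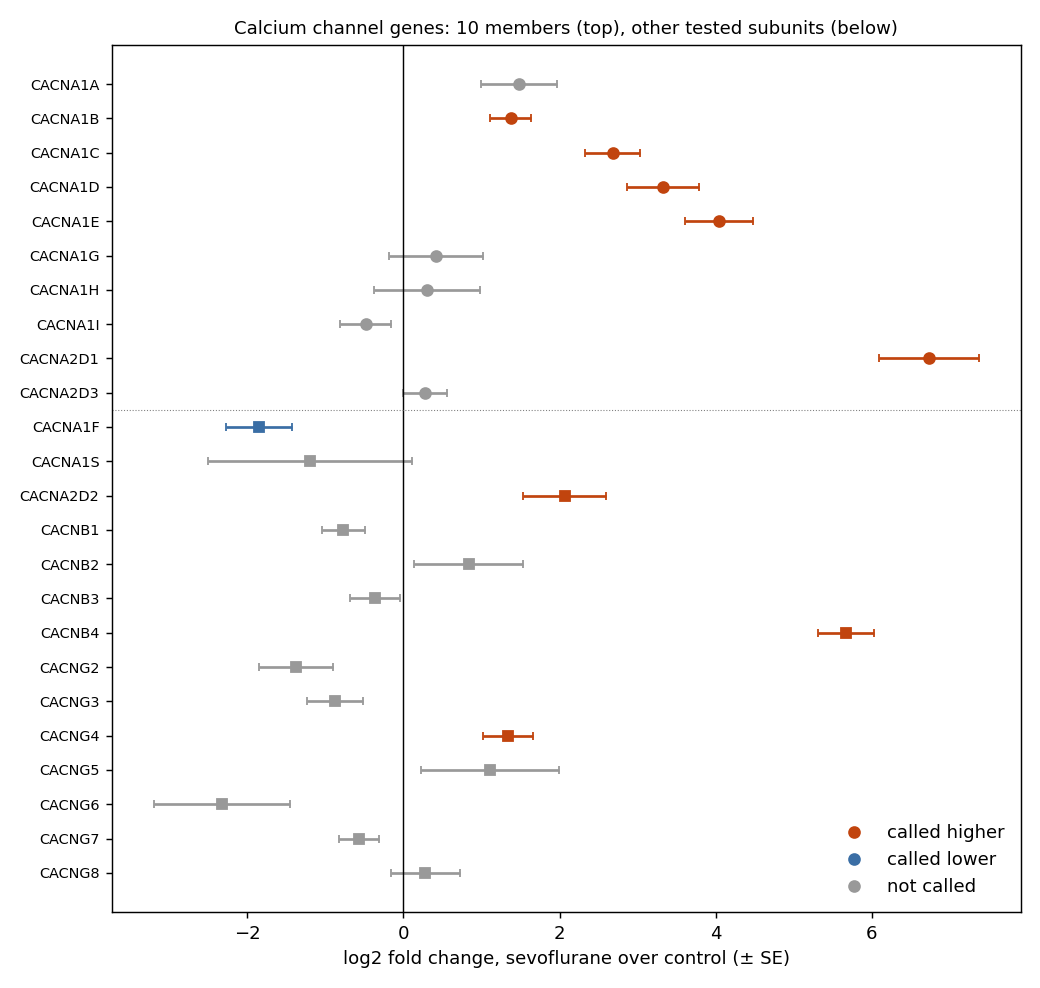
Log2 fold changes of sevoflurane over control with standard errors are shown for the 10 members (circles, top) and the 14 other tested subunits (squares, below), coloured by the edgeR call. CACNA2D1 at 6.73 and CACNB4 at 5.67 lie farthest to the right, and the T type subunits CACNA1G, CACNA1H and CACNA1I lie around 0.

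Ratios of reads inside a library do not depend on scaling between libraries. The pairs given were picked after their values were seen, and a ratio of reads is not a ratio of molecules because transcript lengths were not used. There were 0.897 and 2.23 CACNA2D1 reads per CACNA2D3 read in the sevoflurane female and male, against 0.0249 and 0.00659 in the control female and male. For CACNA1C per CACNA1I read the values were 0.346 and 0.497 in the sevoflurane female and male, against 0.0477 and 0.0412 in the control female and male. Each ratio was higher in both sevoflurane libraries than in either control.

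Other channel subunits were called in both directions. Of 16 listed, CACNA2D4 and CACNG1 did not pass the low-count filter. Of the 14 tested, 3 rose, 1 fell and 10 were not called, against 21.3% of all tested genes called higher and 19.4% lower. The share of the 14 that rose was near that of all tested genes, and their median log2 fold change was −0.46. With sex as a term (a replicate block) 4 were called higher and 5 lower, and leaving out 1 library gave 1 to 4 higher and 0 to 3 lower. CACNB4, a beta subunit that binds the pore from inside the cell, had 60.4 and 58.0 CPM in the sevoflurane female and male libraries, against 1.24 and 1.07 CPM in the control female and male. The male and female libraries were nearly equal within each condition. Its log2 fold change was 5.67 ± 0.36 (edgeR adjusted p = 0.00141).

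The remaining beta subunits were not called. CACNB3 had 200.1 and 126 CPM in the sevoflurane female and male libraries, against 238 and 180.4 CPM in the control female and male, with a log2 fold change of −0.36 ± 0.32. CACNB1 had 118 and 89.2 CPM in the sevoflurane female and male, against 197 and 157 CPM in the control female and male, and CACNB1 did not overlap between conditions (−0.77 ± 0.28, edgeR adjusted p = 0.0654). CACNB1 was called lower with sex as a term (edgeR adjusted p = 0.0325) and by DESeq2 (adjusted p = 0.0456). CACNB2 was at 0.83 ± 0.70 and was not called, except without the control female library, where it was 2.33 (edgeR adjusted p = 0.00350), and with sex as a term, where it was 1.11 (edgeR adjusted p = 0.0130). It was 0.087 without the control male library (edgeR adjusted p = 0.915) and 0.22 without the sevoflurane female. There were 0.302 and 0.460 CACNB4 reads per CACNB3 read in the sevoflurane female and male, against 0.00520 and 0.00591 in the control female and male.

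CACNA2D2, a further alpha2-delta subunit, rose, with 19.2 and 9.07 CPM in the sevoflurane female and male libraries, against 2.94 and 3.82 CPM in the control female and male (log2 fold change 2.06 ± 0.54, edgeR adjusted p = 0.0244). Its call was lost without the sevoflurane female library, where the change was 1.43. CACNA1F, an L type pore best known from the retina, fell, with 8.10 and 4.53 CPM in the sevoflurane female and male, against 23.5 and 22.2 CPM in the control female and male (−1.85 ± 0.42, edgeR adjusted p = 0.0158). Without the sevoflurane male library the call of CACNA1F was lost (edgeR adjusted p = 0.0671). CACNA1S, the pore of skeletal muscle, had 1 to 60 reads per library and was not called.

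Gamma subunits include the TARP proteins, which serve AMPA receptors more than calcium channels. CACNG4 rose by 1.34 ± 0.32 on the log2 scale (edgeR adjusted p = 0.0192), at 32.5 and 27.1 CPM in the sevoflurane female and male, against 12.7 and 10.9 CPM in the control female and male. That call was lost without either sevoflurane library and without the control male. CACNG2 (stargazin) had a log2 fold change of −1.38 ± 0.47, CACNG3 of −0.88 ± 0.36 and CACNG7 of −0.57 ± 0.25, none of them called, although their libraries did not overlap between conditions. With sex as a term CACNG2 and CACNG3 were called lower (edgeR adjusted p = 0.00751 and 0.0192). The libraries did not overlap either for CACNG5, with a log2 fold change of 1.10 ± 0.88, and CACNG6, with −2.33 ± 0.87, and these were not called. CACNG6 was called under 4 of 9 alternatives, sex as a term among them (edgeR adjusted p = 0.00841), and ran from −3.87 to −1.58 when 1 library was left out. CACNG5, with 11 and 17 reads in the sevoflurane female and male and 10 and 2 in the control female and male, ran from 0.48 to 2.36. CACNG8 (0.28 ± 0.44) overlapped between conditions and was not called.

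**Figure D3:**
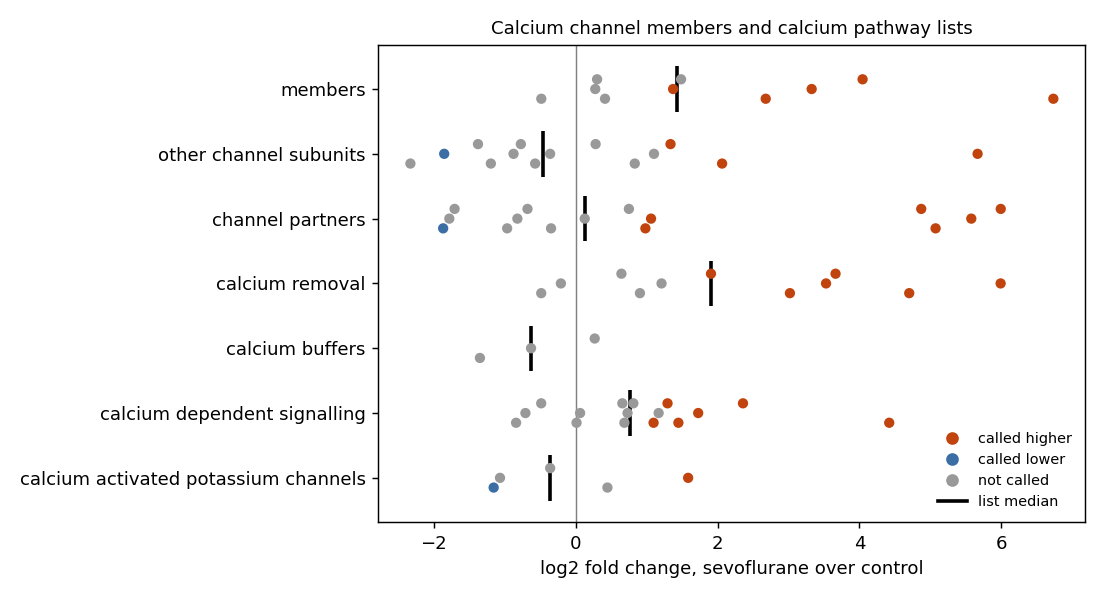
Each point is the log2 fold change of sevoflurane over control of 1 tested gene, by list and coloured by the edgeR call, with a black bar at the median of a list and a grey line at the median of all tested genes. The list of calcium removal genes has its median at 1.91 with 6 of 11 called higher, and none of the lists drawn has more than 1 gene called lower.

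Genes that work beside the channels were counted from the lists. Of the 64 tested genes outside the 10 members, 25 were called, a share close to the 40.7% of all tested genes. Most of the 25 were higher in sevoflurane, while 52.3% of the calls over all tested genes were. As shares of all tested genes, 21.3% were called higher and 19.4% lower, to be set beside the list counts that follow. Of 15 binding partners and regulators, 6 rose, 1 fell and 8 were not called, with a median of 0.13. With sex as a term 7 were called higher and 3 lower, and leaving out 1 library gave 4 to 7 higher and 1 to 3 lower. AKAP5, which anchors kinase and phosphatase at L type channels, had 59.7 and 117 CPM in the sevoflurane female and male, against 1.11 and 1.69 CPM in the control female and male (log2 fold change 5.99 ± 0.51, edgeR adjusted p = 0.00158). CABP1, a calmodulin-like protein that modulates P/Q and L type channels, was the partner that fell, with 75.5 and 50.7 CPM in the sevoflurane female and male, against 259 and 201 CPM in the control female and male (−1.87 ± 0.31, edgeR adjusted p = 0.00601). For both genes the libraries of the conditions were well apart.

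Of 11 genes for pumps and exchangers that clear calcium from the cytosol, 6 rose and 5 were not called, with a median of 1.91. Among all tested genes 21.3% were called higher. SLC24A2, a potassium-dependent sodium-calcium exchanger, had 31.3 and 23.8 CPM in the sevoflurane female and male, against 0.783 and 0 CPM in the control female and male (5.99 ± 0.98, edgeR adjusted p = 0.00565). The control male library held 0 reads of SLC24A2, so without the control female library it was at least 104-fold higher in sevoflurane, against a floor of 3 reads in the remaining control. Without the control male library its log2 fold change was 5.09.

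Of 16 genes of calcium-dependent signalling, 6 rose, against 21.3% of all tested genes, and 10 were not called. The median log2 fold change of the 16 was 0.77. Without the sevoflurane male library 2 were called higher, as in the test against 2-fold, and with sex as a term 9 were called higher and 1 lower. PPP3R1, the regulatory subunit of calcineurin, had 154 and 221 CPM in the sevoflurane female and male, against 11.8 and 5.60 CPM in the control female and male (4.42 ± 0.46, edgeR adjusted p = 0.00210, and 5.09 without the control female). The catalytic subunit PPP3CA had a log2 fold change of 0.73 ± 0.27 and was not called. Of 5 calcium-activated potassium channel genes, 1 rose, 1 fell and 3 were not called, while with sex as a term 2 were called lower. The shares that rose and fell were near those of all tested genes, 21.3% called higher and 19.4% lower. KCNMA1, the large-conductance channel, had 115 and 95.7 CPM in the sevoflurane female and male, against 39.1 and 31.0 CPM in the control female and male (1.59 ± 0.27, edgeR adjusted p = 0.00677). KCNN1, a small-conductance channel, had 51.7 and 41.4 CPM in the sevoflurane female and male, against 112 and 95.6 CPM in the control female and male (−1.15 ± 0.27, edgeR adjusted p = 0.0167). These channels thus lay on opposite sides, and the KCNN1 call was lost without the sevoflurane male or the control female library. The calcium buffers CALB1, CALB2 and PVALB were not called between conditions by edgeR with the low-count filter and condition as the only term. With no low-count filter 1 of them was called lower. With sex as a term 1 of them was called lower, and without the control female library 1 was called higher and 1 lower.

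Markers and transcript classes also moved between the conditions, where 21.3% of all tested genes were called higher and 19.4% lower. Of 9 neuronal markers, MAP2 rose by 6.82 and SYT1 by 5.24 on the log2 scale. RBFOX3 (−1.04) and TUBB3 (−1.46) fell, and 5 were not called. The MAP2 change was larger in size than that of CACNA2D1. The 9 summed to 7708 and 8842 CPM in the sevoflurane female and male, against 6616 and 6818 CPM in the control female and male. MAP2 held 992 and 1551 CPM of this in sevoflurane, against 14.5 and 7.82 CPM in control (female and male). SYT1 held 841 and 815 CPM, against 36.2 and 7.37 CPM. The higher sum in sevoflurane rested on MAP2 and SYT1. The 6 excitatory neuron markers were not called, and of 7 inhibitory neuron markers 1 fell (SST). Of 7 smooth muscle and pericyte markers, cells that also use CACNA1C, 1 rose and 2 fell, with a summed level of 168 and 116 CPM in the sevoflurane female and male, against 284 and 193 CPM in the control female and male. Of 7 microglia markers 5 fell, with a median log2 fold change of −1.42 and a summed level of 171 and 231 CPM in the sevoflurane female and male, against 433 and 396 CPM in the control female and male. Astrocyte markers went both ways: of 7, SLC1A2 rose by 4.30 on the log2 scale, GFAP (−2.53), S100B (−1.94) and ALDH1L1 (−1.16) fell, and 3 were not called. Of 5 endothelial markers FLT1 (4.97) and CDH5 (3.13) rose, CLDN5 (−2.63) fell and 2 were not called. Of 73 tested genes of cytosolic ribosomal proteins, a class of short messenger RNAs, 65 fell, with a median log2 fold change of −1.79. The part of these shifts in the channel results was not tested.

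Males were then compared with females, with condition as a further term. That fit leaves 1 residual degree of freedom, and its standard errors and p-values rest largely on spread shared across genes. Among the 10 genes, 1 was higher in males (CACNA1H), 1 was lower in males (CACNA1G) and 8 were not called, while 1.84% of all tested genes were called, 0.798% higher and 1.04% lower in males. CACNA1H had 88.3 CPM in the sevoflurane male and 26.2 CPM in the sevoflurane female library. In controls it had 68.5 CPM in the male and 24.5 CPM in the female library. Both males were above both females, by 1.62 ± 0.31 on the log2 scale (edgeR adjusted p = 0.0105), or 3.07-fold. CACNA1G had 50.1 CPM in the sevoflurane male and 165 CPM in the sevoflurane female, and 52.4 CPM in the control male and 109 CPM in the control female. Both males were below both females, with a difference of −1.39 ± 0.30 on the log2 scale (edgeR adjusted p = 0.0259).

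CACNA1H and CACNA1G thus differed in opposite directions between the sexes. There were 1.76 and 1.31 CACNA1H reads per CACNA1G read in the sevoflurane and control males, against 0.159 and 0.224 in the sevoflurane and control females. CACNA1A was lower in both males than in the female of the same condition, with a log2 fold change of −1.06 ± 0.29, and was not called (edgeR adjusted p = 0.0883). The third T type subunit, CACNA1I, had −0.49 ± 0.30 (95% interval −1.12 to 0.14). Outside the members, CACNB2 was called lower in males (−1.60 ± 0.34, edgeR adjusted p = 0.0225), as was the calcium pump gene ATP2B2 (−1.63, edgeR adjusted p = 0.0106). The calcium buffer CALB2 was called higher in males, at 357 and 897 CPM in the sevoflurane and control males, against 74.0 and 201 CPM in the sevoflurane and control females. With sex as the only term edgeR called 0 genes between the sexes, so the calls of CACNA1H and CACNA1G were lost, with 168 genes at an unadjusted p under 0.05.

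**Figure D4:**
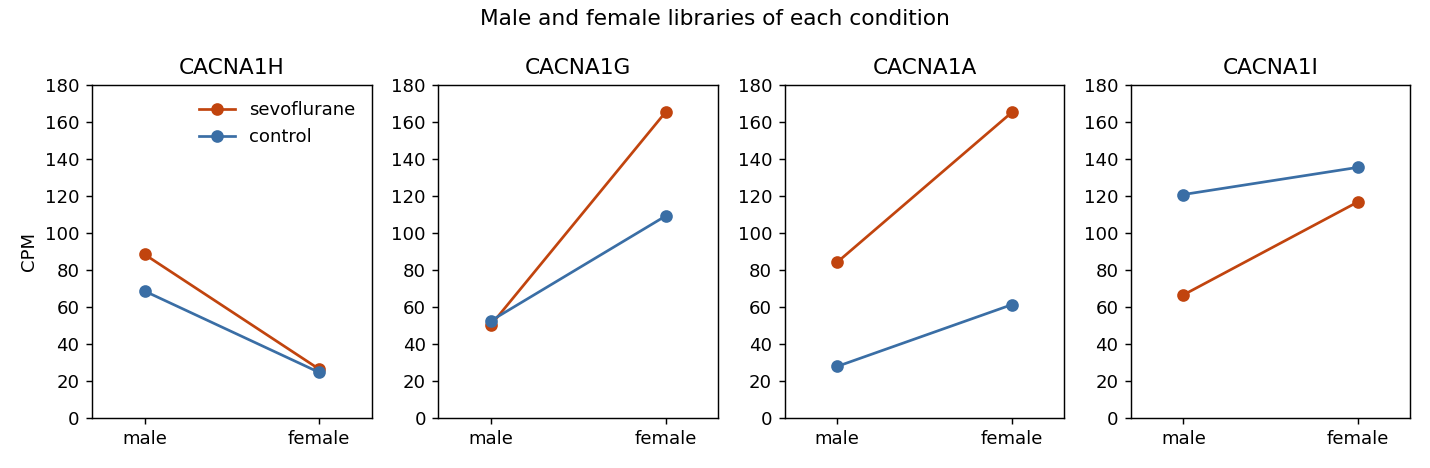
CPM of 4 genes in the male and female library of each condition, joined by a line per condition (red, sevoflurane; blue, control). CACNA1H is higher in the male of each condition, at 88.3 and 68.5 CPM against 26.2 and 24.5 CPM in the females, and CACNA1G is lower in the males, at 50.1 and 52.4 CPM against 165 and 109 CPM in the females.

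Each sex was 1 animal or library per condition, so sex, the individual and the site of dissection cannot be told apart. Of 5 thalamic neuron markers, 2 were called higher in males (SLC17A6 and PRKCD) and 3 were not called. The median male over female log2 difference of the 5 was 0.030, the value of TCF7L2, with NTNG1 at −0.65 and LEF1 at −0.37. SLC17A6, the vesicular glutamate transporter of thalamus and some amygdala neurons, had 390.3 and 111 CPM in the sevoflurane and control males, against 68.2 and 29.2 CPM in the sevoflurane and control females. The 5 markers summed to 458 and 209.6 CPM in the sevoflurane and control males, against 131 and 77.6 CPM in the sevoflurane and control females, and SLC17A6 made up most of the sum in the sevoflurane male. The part of SLC17A6 and PRKCD in the results for CACNA1H and CACNA1G was not tested.

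The genes outside the channel lists whose pattern lay closest to the mean pattern of the 10 members were PPP6C, PTPRN2, ZNF681, DENND4A and FGD6. The measure was the Euclidean distance of log2 CPM, centred per gene, over the 4 libraries, and it ran from 0.0050 to 0.0942 on the log2 scale. That mean averages members with log2 fold changes from −0.48 to 6.73, so it is the pattern of no single member. The nearest of many tested genes over 4 libraries will lie close, so the small distances are not a result. PTPRN2, a protein of dense-core secretory vesicles, had 233 and 207 CPM in the sevoflurane female and male, against 63.1 and 49.4 CPM in the control female and male.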

How the data were processed

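The authors deposited counts of reads per Ensembl gene, without normalization. The authors aligned reads with HISAT2, per the submitters' processing notes. The version, counting program, strand, genome build and annotation were not given in the sources, so no positions, lengths or sequences are given. Genes that overlap or share reads with a copy are uncertain. Symbols came from a table that named 24173 IDs. Low-count genes were dropped by filterByExpr with a minimum count of 10, and the rest scaled with TMM and tested with edgeR 4.0.16 (R 4.3.3) by the quasi-likelihood F-test. Condition was the only term (2 residual degrees of freedom), and the sexes were compared with condition and sex as terms (1). Adjusted p-values cover all tested genes, and a call is an adjusted p under 0.05. Standard errors come from the F statistic. The test borrows spread across the tested genes, so standard errors, intervals and p-values do not rest on a gene's own libraries alone. The code was run on simulated counts with planted changes in well-covered genes and a fixed spread. That setting is simpler than these libraries, so it checks the code and not the calls made here. DESeq2 1.42.0 and edgeR's glmTreat (2-fold) were alternatives. Labels do not state that libraries are separate animals beyond sex, so p-values measure the spread between these libraries. That spread is partly shared across genes.

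Members and lists were chosen with earlier results of these data known. All 10 members and all listed channel subunits were named, and from each other list the called gene of largest rise and of largest fall. PPP3CA, MAP2, SYT1, RBFOX3, TUBB3, the microglial, astrocyte, endothelial and thalamic markers, SST and ATP2B2 were named after their values were seen. Classes by protein length were planned and not formed, since no protein table was used here.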

Additional observations from a re-analysis of the deposited data

Results flagged for a closer look

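For 3 of the 10 genes the direction differed between the sexes or the conditions, and these differences were not tested, since the interaction leaves no residual degree of freedom. For CACNA1G the log2 change of sevoflurane over control was −0.07 in males and 0.60 in females, a difference of −0.66. For CACNA2D3 it was −0.05 in males and 0.55 in females, a difference of −0.60, and correspondingly the male over female difference of CACNA2D3 was −0.56 in sevoflurane and 0.041 in control libraries, again a difference of −0.60. For CACNA2D1 the male over female difference was 0.75 in sevoflurane and −1.64 in control libraries, a difference of 2.39 that rests on the 6 reads of the control male and the 30 reads of the control female.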

How the results depend on the processing

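Library totals in place of TMM moved the median log2 fold change of all genes to 0.24 and the share of calls that were higher to 63.3%, against 52.3%, and no member changed sign. Against 2-fold (glmTreat), 3030 genes were called, 1891 higher and 1139 lower, and 13 pathway genes, against 25. Leaving out 1 library gave 3469 to 5800 called genes, 1967 to 3029 higher and 1502 to 2771 lower, 15 to 30 pathway genes and 4 to 6 members. The lowest values for genes were those without the sevoflurane male library. Library numbers mark only sex, and the male over female differences of the conditions correlated at r = 0.325 across genes. With sex as a term (a replicate block) 40 pathway genes and 6 members were called, CACNA1A among them. CACNA1C, CACNA1D, CACNA1E and CACNA2D1 were called under all 10 alternatives.

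Without 1 library the log2 fold change of sevoflurane over control ran from −0.68 to 1.05 for CACNA1G, −0.82 to 1.20 for CACNA1H, −0.022 to 0.54 for CACNA2D3, −4.96 to 0.25 for CACNA1S and −0.017 to 0.66 for CACNG8. Between the sexes, leaving out a library leaves no test, and the intact pair, a choice made after seeing the data, gave −1.64 to 0.75 for CACNA2D1, −0.56 to 0.041 for CACNA2D3, −1.07 to 0.36 for CACNA2D2 and −1.32 to 0.64 for CACNG5. With no low-count filter 603 genes differed between the sexes, 272 higher and 331 lower in males, and 2 members were lower in males, as with library totals (CACNA1A and CACNA1G). With sex as the only term (no replicate block) edgeR called 0 genes, 0 higher and 0 lower, and 0 members, with 168 genes and 2 members at an unadjusted p under 0.05. DESeq2 with both terms called 325 genes. In the fit without a condition term CACNA2D1 was at 0.73 and CACNG5 at 0.013. Depth limits CACNA2D1, CACNB4, CACNA1D, CACNA1E and CACNA2D2 in controls, where 6 to 62 reads were counted per library. CACNA1C had 99 and 56 reads in the control female and male.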
